A study of Saccharomyces cerevisiae with 25 samples.

Results

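The transcripts of 9 zinc-regulated genes of budding yeast (Saccharomyces cerevisiae) were followed through 6 hours without phosphate. The genes were ZAP1, ZRT1, ZRT2, ZRT3, ZRC1, ZPS1, FET4, ADH4 and DPP1, taken by name from the 6648 named genes of the deposited table, with no use of their measured levels. All 25 samples came from a BY4741 strain, a laboratory haploid of mating type a, with the genotype pho84pr-YFP, phm3 damp: a fluorescent reporter driven by the promoter of PHO84, and a DAmP allele of PHM3. This gene, now called VTC4, codes for the polymerase subunit of the complex that makes vacuolar polyphosphate, and a DAmP allele usually lowers a transcript by disturbing its 3′ end. The 24 samples in no-phosphate medium were taken every 15 min from 15 to 360 min and were grouped into windows of 6 (15 to 90, 105 to 180, 195 to 270 and 285 to 360 min), and 1 sample in high phosphate was taken at 0 min. No sample without phm3 damp was among them, so nothing below separates the effect of phosphate removal in this strain from that in an unaltered strain, and no label says that the samples came from separate cultures.

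Zap1 is a transcription activator that is switched off when the cell holds enough zinc. In zinc-limited cells it binds zinc-responsive elements in promoters and raises uptake at the plasma membrane, release from the vacuole and a set of metabolic and cell-surface genes, its own gene included. The vacuole is the zinc store of yeast and also holds the polyphosphate that VTC4 makes, a polymer that binds metal ions.

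Levels are given as log2 RPM (reads per 1000000 reads, on a log2 scale), a share of all reads, so a change in a transcript and a change in the rest of the cell's RNA cannot be told apart. A gene has no value in a library where it had fewer than 10 reads. Depth was 4.275 M reads (M being 1000000) at 0 min and 0.1466 to 4.263 M in no phosphate, with the lowest depths at the end. ADA2, a subunit of a histone acetyltransferase complex, lay at 7.83 to 8.92 log2 RPM at 75, 120, 255, 345 and 360 min and at 10.46 to 12.02 in the other 20 libraries. Those 5 libraries therefore stand apart from the rest, and the results that change without them are given both ways. VTC4 itself was listed in every library, at 10.36 log2 RPM at 345 min, a library low in ADA2, and at 5.87 to 8.06 in the other 24. All 6 markers of mating type a were listed, and their summed level was 11.74 to 12.39 log2 RPM from 285 to 360 min and 11.16 to 11.75 from 15 to 90 min. The 4 markers of mating type alpha summed to 4.26 to 6.36 and to 4.35 to 5.48 log2 RPM in those windows. Between those windows SAG1 rose by 1.76 ± 0.35 (log2 difference ± SE, the standard error, adjusted p = 0.000297 in limma), STE3 differed by -0.04 ± 0.19 (adjusted p = 0.884 in limma) and MF(ALPHA)2 had no value in any library. The part of such RNA in the results was not tested. HIS3, LEU2 and MET17, which BY4741 lacks, had no value in any library, while URA3, which BY4741 also lacks, had a value in 13 libraries at 2.52 to 4.71 log2 RPM.

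The promoters were read first, since the element through which Zap1 acts is known. The zinc-responsive element is 11 bases long: ACCTT, any base, and AAGGT. It is its own reverse complement, so a search of either strand finds it on both. In the 500 bases before the start codon, 7 of the 9 genes (77.8%) held it with at most 1 difference, against 118 of 6002 nuclear protein-coding genes (1.97%). An exact match was present in 9 of the 6002 genes (0.15%), of which ZRT1 was the only one of the 9 zinc genes. CACGTG, the core that the phosphate activator Pho4 binds, was in the window of 0 of the 9 genes and of 374 of the 6002 (6.23%). FET4 and ADH4 had no match within 500 bases, which says nothing about sites farther away.

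In build R64 the coding regions are ZAP1 (YJL056C) at chrX:330431-333073, ZRT1 (YGL255W) at chrVII:20978-22108, ZRT2 (YLR130C) at chrXII:402794-404062, ZRT3 (YKL175W) at chrXI:118793-120304 and ZRC1 (YMR243C) at chrXIII:754838-756166. The others are ZPS1 (YOL154W) at chrXV:34658-35407, FET4 (YMR319C) at chrXIII:912880-914538, ADH4 (YGL256W) at chrVII:15159-16307 and DPP1 (YDR284C) at chrIV:1030550-1031419. ADH4 is the next gene before ZRT1, with 4670 bases between them.

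The stretches that hold the elements are shown for the 7 of the 9 genes that have a match, which leaves out FET4 and ADH4. The genes were picked as zinc-regulated, so the shared element describes the list and is no separate result. They are given 5′ to 3′ on the strand of the gene, from the RefSeq genome of build R64, with the matches to the element in capitals. The stretches lie at chrX:333195-333229 (ZAP1, minus strand), chrVII:20647-20796 (ZRT1, plus strand), chrXII:404302-404385 (ZRT2, minus strand), chrXI:118626-118660 (ZRT3, plus strand), chrXIII:756318-756352 (ZRC1, minus strand), chrXV:34317-34366 (ZPS1, plus strand) and chrIV:1031849-1031883 (DPP1, minus strand). Every match lies between annotated genes, and no annotated gene overlaps any of the 9.
ZAP1: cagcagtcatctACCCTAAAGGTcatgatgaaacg
ZRT1: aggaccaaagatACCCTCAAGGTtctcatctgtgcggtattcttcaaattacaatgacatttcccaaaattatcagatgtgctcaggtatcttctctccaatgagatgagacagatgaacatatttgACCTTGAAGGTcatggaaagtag
ZRT2: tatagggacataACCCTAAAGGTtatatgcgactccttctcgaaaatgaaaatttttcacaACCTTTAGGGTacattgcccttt
ZRT3: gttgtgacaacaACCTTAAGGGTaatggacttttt
ZRC1: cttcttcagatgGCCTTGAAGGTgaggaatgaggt
ZPS1: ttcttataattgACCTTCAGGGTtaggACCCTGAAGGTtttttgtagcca
DPP1: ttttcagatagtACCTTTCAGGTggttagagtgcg

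Counted from 1 at the 5′ end of the element, with the element's base first, the match of ZAP1, the outer match of ZRT1 and ZRT2 and the inner match of ZPS1 carried T4C. The inner match of ZRT2, the match of ZRT3 and the outer match of ZPS1 carried A8G, which is the mirror change on the other strand. ZRC1 differed by A1G and DPP1 by A7C. ZRT1, ZRT2 and ZPS1 each had 2 matches. Counted in bases from the start codon, those of ZPS1 began at -329 and -314, those of ZRT2 at -311 and -262, and those of ZRT1 at -319 and, for the exact one, -204.

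**Figure D1:**
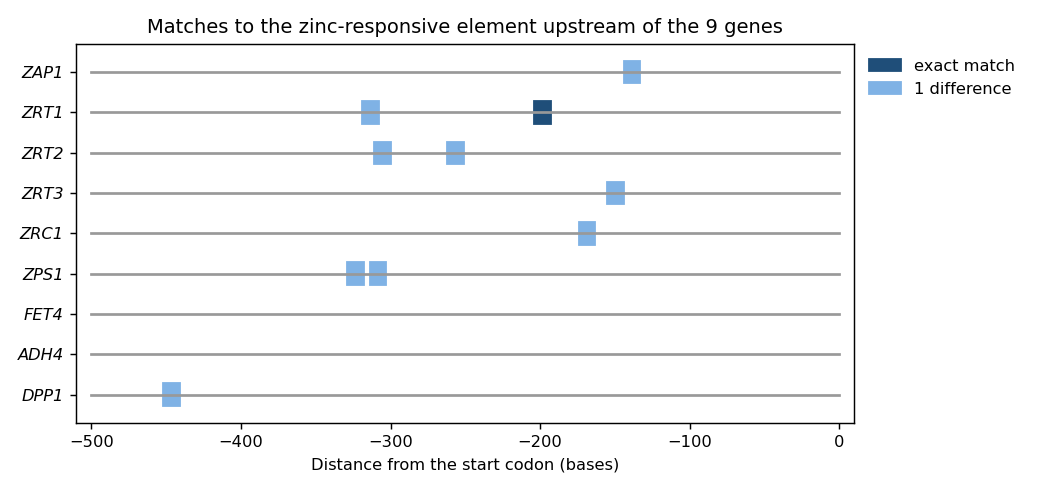
Each grey line is the 500 bases before the start codon of 1 gene, in bases on the x axis, and each box is a match to the zinc-responsive element, dark for the exact match and pale for matches with 1 difference. The single matches of ZAP1, ZRT3 and ZRC1 begin between -174 and -144, that of DPP1 begins at -452, and FET4 and ADH4 have none.

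From 285 to 360 min against 15 to 90 min, 3 of the 8 genes that could be tested rose, namely the activator gene ZAP1, the cell-surface gene ZPS1 and the plasma membrane transporter gene FET4, and none fell. Calls needed a log2 difference of at least 1 and an adjusted p (Benjamini-Hochberg) under 0.05 in limma's moderated test, fitted over 4742 genes. In that comparison 12.9% of all tested genes rose and 3.4% fell (16.3% were called). The median difference was 0.66 over the 8 genes and 0.36 over all tested genes, and a difference from which the 0.36 (or the like median of another comparison) was taken off is called relative below. Median centring shifted every library by its median over the genes with a value in all 25 samples, which is not the 0.36 of all tested genes. With it, 464 genes were called, 236 higher and 228 lower, against 610 higher and 161 lower without centring. After that centring ZPS1 was the only one of the 8 still called, with ZAP1 at 0.96 and FET4 at 0.93. ADH4 was not tested, because it had a value in only 3 of the last 6 libraries.

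The earlier steps gave no call among the 8 genes. For 15 to 90 min against 0 min, 0.148% of all tested genes were called (0.127% rose and 0.0211% fell), 4 of 8 phosphate-starvation genes among them and 0 of the 8 zinc genes. For 105 to 180 against 15 to 90 min and for 285 to 360 against 195 to 270 min, 0% were called by limma, with 234 and 610 genes at an unadjusted p under 0.05. Of the 8 zinc genes, ZRC1 was among the 234, and ZRT1, ZPS1 and FET4 were among the 610. For 195 to 270 against 105 to 180 min, 8.31% of all tested genes were called (5.08% rose and 3.23% fell) and again 0 of the 8, although 5 of them had an adjusted p under 0.05 in limma with differences below 1. The same 5 had an unadjusted p under 0.05, as had 2179 of the 4742 tested genes, so that count does not set the 8 apart. Along the whole no-phosphate course, tested in limma with a smooth curve (a natural cubic spline with 4 degrees of freedom) and a fitted range of at least 1, 6 of the 8 genes varied, where 39.4% of all tested genes did. Their median fitted range was 1.15, against 0.88 over all tested genes.

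ZAP1, the gene of the activator, lay at 4.55 log2 RPM at 0 min, where it had 100 reads. From 15 to 90 min its values ran from 4.74 to 5.68 with a median of 5.15, and from 105 to 180 min from 4.71 to 6.25 (median 5.35). They ran from 6.01 to 6.54 (median 6.26) from 195 to 270 min and lay between 6.12 and 7.09 (median 6.50) from 285 to 360 min. All 6 late values lay above all 6 early ones, and the values at 135, 150, 165 and 180 min were 4.89, 5.43, 5.92 and 6.25. The late window was higher by 1.37 ± 0.23 (log2 difference ± SE, n = 6 each, adjusted p = 2.93e-05 in limma), 2.58-fold, or 1.01 relative to the median gene. Without the 5 libraries low in ADA2 the difference was 1.25, and in the refits that left out 1 library it was 1.26 to 1.47. The step from 105 to 180 to the following window, 0.89 ± 0.23, had an adjusted p of 0.00522 in limma but missed the fold threshold. The first window was 0.61 ± 0.43 above the 0 min library (adjusted p = 0.92 in limma). The fitted curve spanned 1.75 log2 units, lowest at 75 and highest at 360 min (adjusted p = 7.24e-07 in limma). The reads behind these values numbered 20 to 164 a library, the 20 being at 345 min.

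Of the plasma membrane transporters, FET4 rose, ZRT1 lay higher without reaching the fold threshold, and the late difference of ZRT2 was that of the median gene. FET4 is a low-affinity carrier of iron that also takes up zinc. It lay at 4.46 log2 RPM at 0 min. It had values of 3.03, 3.07, 3.73 and 3.90 in 4 libraries from 15 to 90 min, of 2.80, 3.39, 3.59, 3.71 and 4.16 in 5 from 105 to 180 min, of 3.58, 3.60, 3.64 and 4.60 in 4 from 195 to 270 min, and of 4.25, 4.26, 4.71, 5.11 and 5.29 in 5 from 285 to 360 min. The listed late values lay above all listed early ones. This separation is partly set by depth. The lowest level that could be listed at 315, 330 and 360 min was 4.03, 4.45 and 4.26 log2 RPM, above the early 3.90. The 0 min value lay above the listed early values and within the range of the listed late ones. The late window was higher by 1.29 ± 0.29 (adjusted p = 0.00131 in limma, n = 5 and 4 values), 2.45-fold, or 0.93 relative to the median gene. The difference was 1.68 with missing values filled at 5 reads and 1.54 at 9 reads. These fills follow depth. The lowest level that could be listed was 3.15 and 3.74 log2 RPM at 75 and 90 min and 6.09 at 345 min. The larger differences with fills therefore do not bear on the rise. Without the 5 libraries low in ADA2 the difference was 1.19. With every second time point it was 0.96 (adjusted p = 0.0503 in limma) and no longer called.

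From 15 to 90 min FET4 differed by -1.03 ± 0.49 from the single 0 min library. The unadjusted p was 0.0497 and the adjusted p was 0.92 in limma, so it was not called. Pooled over libraries, FET4 had 22 RPM at 0 min, 9.48 to 11.1 RPM from 15 to 90 min and 25.6 to 28.4 RPM from 285 to 360 min, where each range runs from missing values at 0 to missing values at 9 reads. The 0 min figure rests on 94 reads and has a 95% Poisson interval of 17.8 to 26.9 RPM, which covers counting error only.

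ZRT1, the high-affinity zinc importer and the gene with the exact element, lay at 4.46 log2 RPM at 0 min. Its listed values lay between 3.90 and 4.42 (median 4.09) from 15 to 90 min, between 3.67 and 4.50 (median 3.98) from 105 to 180 min, between 4.15 and 4.60 (median 4.42) from 195 to 270 min and between 4.25 and 5.56 (median 4.89) from 285 to 360 min. Early and late values overlapped, with 4.25 at 285 min under the early 4.42. From 285 to 360 min it was 0.80 ± 0.21 higher than from 15 to 90 min (adjusted p = 0.00359 in limma, n = 4 and 5 values), under the fold threshold. The fitted curve spanned 1.26 units, from a low at 75 to a high at 360 min (adjusted p = 0.0046 in limma), and ZRT1 was called along the course. That call was lost with median centring (0.85) and with missing values filled at 5 reads (adjusted p = 0.0836 in limma), and the late window was 1.02 higher without the 285 min library and 1.06 with values filled at 9 reads. ZRT1 was a low gene, with 13 to 94 reads a library and 4 missing values.

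ZRT2, the low-affinity zinc importer, had 2 matches and was not called in any comparison. It lay at 6.78 log2 RPM at 0 min, at 6.39 to 7.04 from 15 to 90 min, at 6.17 to 6.88 from 105 to 180 min, at 6.73 to 7.07 from 195 to 270 min and at 6.81 to 7.37 from 285 to 360 min. Late against early, it was 0.36 ± 0.14 higher (adjusted p = 0.0361 in limma), the same as the median gene, and -0.04 after median centring. The fitted range was 0.69 and was not called.

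The late differences of the pair of vacuolar transporters had opposite signs, and neither was called between windows. ZRT3, which moves zinc out of the vacuole, lay at 6.20 log2 RPM at 0 min, at 5.89 to 6.27 from 15 to 90 min and at 5.74 to 6.35 from 105 to 180 min. It then lay at 6.42 to 7.17 from 195 to 270 min and at 6.43 to 6.77 from 285 to 360 min. All 6 values of each later window lay above all values before 195 min. The late values were 0.49 ± 0.14 above the early ones (adjusted p = 0.00624 in limma), and the window from 195 to 270 min was 0.54 ± 0.14 above that from 105 to 180 min (adjusted p = 0.00617 in limma). Neither passed the fold threshold, and the fitted range of 0.68 did not either.

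ZRC1, which moves zinc into the vacuole, lay at 7.62 log2 RPM at 0 min. Its values lay between 7.23 and 8.18 (median 7.35) from 15 to 90 min, between 6.70 and 7.77 (median 6.93) from 105 to 180 min, between 6.54 and 7.21 (median 6.94) from 195 to 270 min and between 6.58 and 7.63 (median 7.08) from 285 to 360 min. The late values overlapped the early ones, and the log2 difference was -0.43 ± 0.20 (adjusted p = 0.0815 in limma), or -0.79 relative to the median gene. After median centring it was -0.83 with an adjusted p of 0.00516 in limma, still under the fold threshold. ZRC1 varied along the course, with a fitted range of 1.04, a high at 90 min and a low at 195 min (adjusted p = 0.00146 in limma). After median centring the fitted range was 1.34 (adjusted p = 5.09e-05 in limma). Without centring that call sat at the threshold. It was lost without the 5 libraries low in ADA2 (0.90), with 3 degrees of freedom (0.68) and without the library of 75 min (0.87), 90 min (0.93), 120 min (0.97), 165 min (0.99) or 195 min (0.99). Of the libraries low in ADA2, those at 75, 120 and 360 min held ZRC1 at 0.62, 0.52 and 0.60 above the mean of their neighbours. Those at 255 and 345 min differed from theirs by -0.20 and -0.45, so the 5 did not share a direction.

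**Figure D2:**
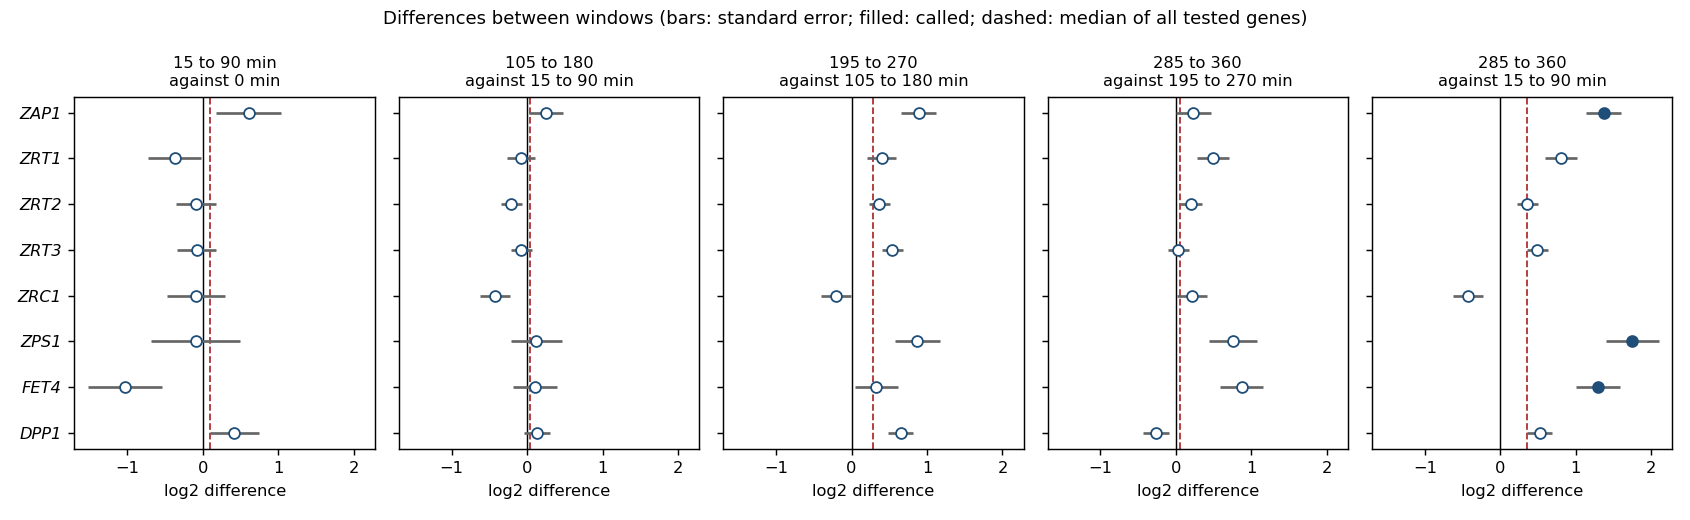
Each panel is 1 comparison between windows, with the log2 difference on the x axis and its SE as a bar for the 8 tested genes. Filled points were called and the dashed line is the median of all 4742 tested genes. The filled points are ZAP1 (1.37), ZPS1 (1.75) and FET4 (1.29) in the panel of 285 to 360 against 15 to 90 min, where ZRC1 is the only point left of 0.

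Of the targets outside transport, ZPS1 had the highest difference of the 8 tested genes from 285 to 360 against 15 to 90 min. It codes for a cell-surface protein made in zinc-limited cells. It lay at 3.63 log2 RPM at 0 min and at 3.19, 3.47, 3.62 and 3.90 in 4 libraries from 15 to 90 min. It ran from 2.67 to 4.45 (median 3.61) from 105 to 180 min and from 3.96 to 5.65 (median 4.34) from 195 to 270 min, and it lay at 4.79, 5.0, 5.13, 5.52 and 6.03 in 5 libraries from 285 to 360 min. All listed late values lay above all listed early ones. This separation is partly set by depth, since 10 reads at 315, 330 and 360 min were 4.03, 4.45 and 4.26 log2 RPM, above the early 3.90. The late window was higher by 1.75 ± 0.35 (adjusted p = 0.000318 in limma, n = 5 and 4 values), 3.36-fold, or 1.39 relative to the median gene. The early window missed 2 values and the late window 1, and with these filled at 5 or 9 reads the difference was 2.08 or 1.94. These fills follow depth as for FET4, with the same libraries missing in both windows, so the larger differences do not bear on the rise. Without the 5 libraries low in ADA2 the difference was 1.56, and with every second time point 1.42. The fitted curve spanned 2.35 units, lowest at 15 and highest at 360 min (adjusted p = 0.000157 in limma), and was no longer called with every second time point (adjusted p = 0.1 in limma). ZPS1 had 10 to 93 reads a library, so single values carry wide counting error.

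DPP1, a lipid phosphatase of the vacuole membrane, varied along the course by 1.02 log2 units, lowest at 75 and highest at 210 min (adjusted p = 5.52e-05 in limma). It lay at 6.04 log2 RPM at 0 min, at 6.36 to 6.61 from 15 to 90 min, at 5.92 to 7.29 from 105 to 180 min, at 7.04 to 7.46 from 195 to 270 min and at 6.59 to 7.26 from 285 to 360 min. From 105 min (5.92) to 195 min (7.46) its value was higher at each later time point but 1, that of 135 min. The late window was 0.52 ± 0.17 above the early one (adjusted p = 0.0155 in limma), and the window from 195 to 270 min was 0.65 ± 0.17 above the one before it (adjusted p = 0.00697 in limma), both under the fold threshold. The call along the course rested on a range just over 1: it was 0.94 to 1.00 in the refits that lost it, among them those without the library of 105, 180 or 195 min, 0.69 after median centring, 0.98 without the 3 libraries under 0.5 M reads and 0.90 with 3 degrees of freedom.

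ADH4, an alcohol dehydrogenase isoform made in zinc-limited cells, lay at 4.66 log2 RPM at 0 min, at 4.39 to 5.0 from 15 to 90 min and at 4.43 to 4.80 from 105 to 180 min. It lay at 4.29 at 240 min and at 5.18 to 5.85 in the other 5 libraries from 195 to 270 min. It then had values of 5.07, 5.0 and 5.51 at 285, 300 and 315 min and none at 330, 345 and 360 min, where 10 reads would have been 4.45, 6.09 and 4.26. At 330 and 360 min it was therefore below every listed value of the same window. Pooled, it had 25.3 RPM at 0 min, 24.7, 24.8 and 39.3 RPM in the first 3 windows and 23.7 to 32.1 RPM in the last. The 95% Poisson interval of the 39.3 RPM was 34.1 to 45 RPM and that of the 24.8 RPM before it 22.2 to 27.6 RPM. Both intervals cover counting error only and not the spread between libraries, and no test was run on ADH4.

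Read per kb of coding length, the 9 transcripts covered a wide range and kept much of their order. At 0 min ZRC1 was highest at 148 RPM per kb and ZAP1 lowest at 8.85. From 285 to 360 min the pooled order was DPP1 at 145, ZRC1 at 110, ZRT2 at 105, ZRT3 at 63.8, ZPS1 at 50.3 to 54.1, ZAP1 at 33.5, ZRT1 at 22.1 to 27.0, ADH4 at 20.6 to 28 and FET4 at 15.4 to 17.1 RPM per kb. Over the libraries of that window, ZRT3 (57.0 to 72.2) lay clear below the gene above it, ZRT2 (88.4 to 130). FET4 (11.5 to 23.6) lay below the listed values of ADH4 (27.9 to 39.7), but ADH4 was listed in only 3 of the 6 libraries. At 360 min ADH4 lay under 4.26 log2 RPM and FET4 at 5.11, so their order over the libraries is not settled. The listed values of the other neighbours overlapped. From 15 to 90 min the order was ZRC1 at 132, DPP1 at 99.5, ZRT2 at 85.9, ZRT3 at 47.1, ADH4 at 21.5, ZAP1 at 14.6, ZRT1 at 12.9 to 13.7, ZPS1 at 12.6 to 14.8 and FET4 at 5.72 to 6.70 RPM per kb.

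**Figure D3:**
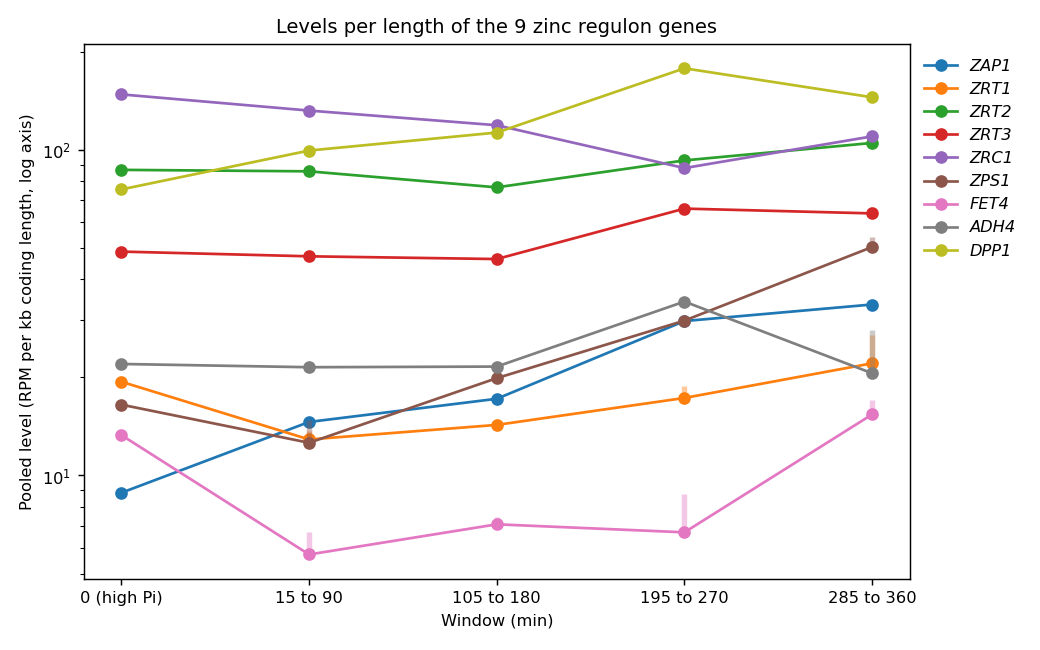
The y axis, which is logarithmic, gives the pooled RPM per kb of coding length of each of the 9 genes at 0 min and in the 4 windows (x axis, min). Pale bars run from missing values at 0 to missing values at 9 reads. DPP1 goes above ZRC1 from 195 min, at 178 against 87.9 RPM per kb, and FET4 is the lowest in every no-phosphate window.

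Among the 2954 other genes with a value in all 25 samples, those whose course was most like that of ZAP1 were ATG33, a mitophagy gene, with Pearson's r of 0.97, GTT1, a glutathione transferase gene, with 0.96, YHR112C with 0.96, COQ4 of coenzyme Q synthesis with 0.95 and PRC1, the vacuolar carboxypeptidase Y gene, with 0.95. Spearman's rho was 0.95 for ATG33, 0.90 for GTT1, 0.94 for YHR112C, 0.96 for COQ4 and 0.91 for PRC1. These describe 25 samples of 1 time course, which share its trend: the median r over all genes was 0.58 and 188 genes reached 0.9. Of the regulon, DPP1 had r of 0.80 (place 704 of 2954), ZRT3 0.70, ZRT2 0.56 and ZRC1 -0.53. ZRT1, ZPS1, FET4 and ADH4 lacked values in some samples and were not ranked. The phosphate-starvation gene PHO5 had r of 0.90.

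Other genes that zinc or Zap1 is known to control gave 16 tested genes of 20. From 285 to 360 against 15 to 90 min 7 of the 16 rose and 0 fell, with a median difference of 0.86, where 12.9% of all tested genes rose. URA10 of pyrimidine synthesis rose by 2.13 ± 0.34 (adjusted p = 1.56e-05 in limma), NRG2, a repressor gene, by 1.40 ± 0.18 and PEP4, the vacuolar proteinase A gene, by 1.35 ± 0.25. PAH1, the phosphatidate phosphatase gene, rose by 1.27 ± 0.27, PST1 of the cell wall by 1.17 ± 0.19, PRC1 by 1.15 ± 0.17 and ZRG8 by 1.08 ± 0.29 (largest adjusted p of the 7, 0.00422 in limma). After median centring, 1 of the 7 was still called, URA10 at 1.72 (adjusted p = 0.000106 in limma), and the other 6 lay at 0.71 to 1.00. Without the library of 315 min ZRG8 was not called (0.93), and without the 5 libraries low in ADA2 all 7 were called and IZH1 as well. From 195 to 270 against 105 to 180 min URA10 had already risen, by 1.69 ± 0.34, while the call of PEP4 there (1.03 ± 0.25) was lost without the 5 libraries low in ADA2 (0.81). Of the 4 genes of this list with a match to the zinc-responsive element, ZRG17 and MCD4 held the exact element, and none of the 4 was among the 7 that rose. Their differences were 0.60 ± 0.18 for ZRG17, a zinc transporter gene of the secretory pathway, 0.04 ± 0.15 for MCD4, 0.97 ± 0.14 for IZH1 and 0.15 ± 0.19 for MNT2. Along the course 10 of the 16 varied, or 7 after median centring, where 39.4% of all tested genes varied without it.

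Of 4 further zinc-related genes that are not known Zap1 targets 3 were tested. COT1, which like ZRC1 loads the vacuole, differed by 0.02 ± 0.18, MSC2 of the endoplasmic reticulum by 0.26 ± 0.19 and YKE4 by 0.08 ± 0.15, and 0 of these 3 were called by limma in any comparison or along the course, or had an unadjusted p under 0.05 in this one. In this comparison 16.3% of all tested genes were called and along the course 39.4%, so a count of 0 of 3 does not set them apart. After median centring COT1 varied along the course, with a fitted range of 1.04 (adjusted p = 0.00384 in limma). Their median late difference was 0.08, or -0.28 relative to the median gene, against 0.66 and 0.30 for the regulon.

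**Figure D4:**
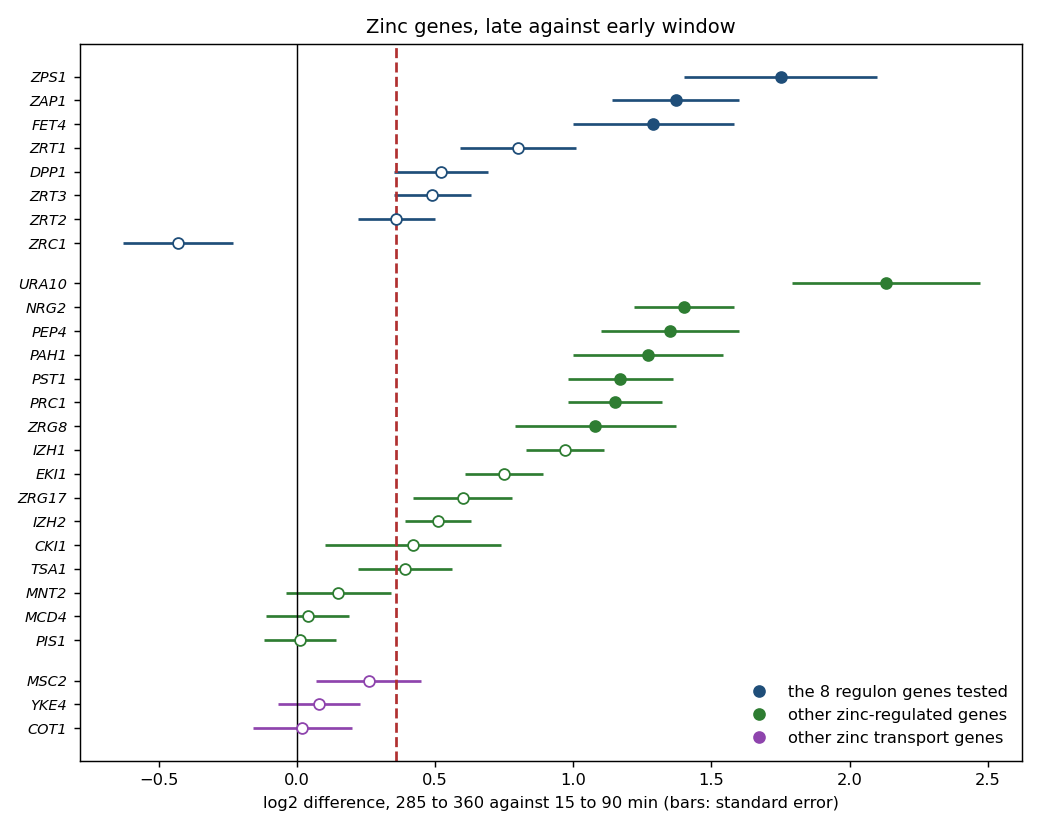
The x axis gives the log2 difference of 285 to 360 against 15 to 90 min with its SE for 8 regulon genes (blue), 16 other zinc-regulated genes (green) and 3 other zinc transport genes (purple). Filled points were called and the dashed line is the median of all tested genes, 0.36. The blue points run from -0.43 for ZRC1 to 1.75 for ZPS1, and the purple ones from 0.02 to 0.26.

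FET4 is also under iron and oxygen control, so those genes were set beside it. Of 14 iron-uptake genes 9 were tested and 0 were called in any comparison between windows, with a median late difference of 0.17. Late against early 16.3% of all tested genes were called, and 8.31% or fewer in each other comparison, so 0 of 9 does not set these genes apart. In the late comparison ARN2 (0.77 ± 0.26), SIT1 (-0.43 ± 0.17) and SMF3 (0.30 ± 0.12) had an unadjusted p under 0.05 in limma, as had 2636 of the 4742 tested genes. The high-affinity iron uptake pair FET3 and FTR1 differed by 0.02 ± 0.14 and 0.17 ± 0.15. Along the course 5 of the 9 varied (FIT2, FIT3, ARN2, SIT1 and ENB1), where 39.4% of all tested genes did. Without the 5 libraries low in ADA2 the call was kept by FIT2 and SIT1, 2 of the 9, and with all libraries both had their fitted highs at 15 min. Of 6 oxygen genes 2 were tested, and ROX1, the repressor of hypoxic genes, differed by 0.75 ± 0.21 (adjusted p = 0.0054 in limma) and HEM13 by 0.42 ± 0.20, with 0 called between windows. Beside the same shares over all genes, 0 of 2 does not set them apart either.

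Of 7 alcohol dehydrogenase genes beside ADH4, 6 were tested, and 1 rose and 1 fell from 285 to 360 against 15 to 90 min, where 12.9% of all tested genes rose and 3.4% fell. Counts this small do not set the list apart. Along the course ADH5, ADH6 and ADH7 varied, 3 of the 6, or 2 after median centring, where 39.4% of all tested genes varied without it. ADH5 rose by 1.17 ± 0.24 (adjusted p = 0.000366 in limma), with 7.77 ± 0.48 log2 RPM from 285 to 360 min and 6.60 ± 0.17 from 15 to 90 min (SD, n = 6 each). Without the 5 libraries low in ADA2 its difference was 0.92, and after median centring 0.77, both under the fold threshold. ADH6, which acts with NADPH, fell to 8.36 ± 0.24 from 285 to 360 min, against 9.87 ± 0.30 from 15 to 90 min, a difference of -1.51 ± 0.15 (adjusted p = 3.77e-08 in limma). ADH1 and ADH3 are zinc enzymes known to be lowered in low zinc through Zap1. ADH1, the main fermentative enzyme, differed by 0.31 ± 0.17 and was not called. ADH3 lay at 9.66 ± 0.18 log2 RPM from 285 to 360 min and at 9.01 ± 0.12 from 15 to 90 min (SD, n = 6 each) and was not called. A part of Zap1 in these levels was not tested.

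Phosphate-starvation genes are set beside the regulon for timing. For 15 to 90 min against 0 min, the uptake gene PHO84 rose by 2.17 ± 0.30, SPL2 by 2.77 ± 0.45, the polyphosphate gene VTC3 by 2.29 ± 0.26 and the kinase inhibitor gene PHO81 by 1.5 ± 0.27 (largest adjusted p 0.00976 in limma), while the differences of the 8 zinc genes in that comparison ran from -1.03 for FET4 to 0.61 for ZAP1. For 285 to 360 against 15 to 90 min, the acid phosphatase gene PHO5 rose by 3.04 ± 0.31, PHM6 by 2.59 ± 0.32, PHO89 by 2.56 ± 0.32 and PHO84 by 1.29 ± 0.16. After median centring PHO84 was at 0.88 and no longer called. VTC4 differed by 1.37 ± 0.33 (adjusted p = 0.00149 in limma), but without the library of 345 min by 0.95 and without the 5 libraries low in ADA2 by 0.92, and then it was not called. PHO5 has near-identical copies, so its share of the reads is uncertain. The test of a difference between the lists was not run.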

How the data were processed

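RNA from 25 samples was sequenced. Reads were aligned with Bowtie to build R64, per the submitters' processing notes, while the counting (by strand or not) was not given in the sources used here. Log2 values were deposited by the authors, and since 2 to the power of a column sums to 1e+06, they were read as log2 RPM. The design text speaks of a normalization to the first sample, but the column of that sample is not 0. Low values are whole multiples of 1 step with 10 steps as the lowest, so depth in reads was recovered as the inverse of the step (94.9 to 97.5% of values under 200 reads within 0.02 of a whole number). The median depth was 1.12 M reads (M being 1000000), and the precision of low genes is set by their reads.

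Of 6701 rows, 51 had no name and 2 shared one, which left 6648. Testing required 4 or more values among the 6 libraries of each window, and a value at 0 min. limma 3.58.1 in R 4.3.3 fitted the means of 0 min and the 4 windows to all 25 samples. No count model was used, because the deposited unit is not counts. The 0 min library has no replicate and was assumed to vary like the others. Each p-value rests on the spread of neighbouring time points, which may be technical and includes change within a window. The course was tested over the 24 samples in no phosphate with a natural cubic spline (4 degrees of freedom). Missing values were left out of the fits. The scripts were tested on simulated data.

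Coordinates, upstream sequences and coding lengths came from RefSeq's annotation of R64, counted from 1. All 9 regulon genes were named, and from the other lists the genes that passed a test, or up to 3 others. The 9 genes and the lists were chosen with earlier results of these data known. The alternatives were other scaling, filters, fills for missing values, weights, curves and left-out libraries. The limit of 9.5 log2 RPM for ADA2 and the fill at 9 reads were chosen after seeing the data. The alternatives for the genes of the other lists (median centring, without the 5 libraries low in ADA2, and 1 library left out) were chosen after seeing the data.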

Additional observations from a re-analysis of the deposited data

Results flagged for a closer look

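Of 35 gene and window combinations, 2 held a library far from the others of its window, and chance would give about 1 in 20. ZRT3 had 7.17 log2 RPM at 255 min, where the nearest of the other 5 libraries from 195 to 270 min had 6.49 and the gap was 0.91 of the range. The 255 min library is among the 5 low in ADA2. FET4 had 4.60 log2 RPM at 210 min, where the nearest of the other 3 listed values from 195 to 270 min was 3.64 and the gap was 0.94 of the range.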

How the results depend on the processing

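The late rises of ZAP1, ZPS1 and FET4 kept their direction in every alternative in which they were tested and their call in all refits that left out 1 library, and the calls lost elsewhere were those of ZAP1 (0.96) and FET4 (0.93) after median centring and of FET4 (0.96) with every second time point. For ZPS1, FET4 and ZRT1 the fills for missing values follow depth, and the larger late differences with them do not bear on a rise. Over all genes, the calls from 285 to 360 against 15 to 90 min numbered 464 after median centring (771 without), and those from 195 to 270 against 105 to 180 min numbered 280, 99 higher and 181 lower (394 without, 241 higher and 153 lower). Calls along the course numbered 1204 among genes with a value in all samples, which are fewer genes, and 1866 otherwise. With every second time point 2 genes were called from 15 to 90 min against 0 min, and without the 5 libraries low in ADA2 1 gene was called from 285 to 360 against 195 to 270 min. Leaving out 1 library in turn gave 5 to 9 calls, 0 to 1, 301 to 535 and 0 to 2 in the 4 successive comparisons (1 without 105 min in the second of them, 1 without 75 min and 2 without 285 min in the last), 713 to 826 for late against early and 1721 to 1948 along the course.

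The direction of small differences turned, and the cause was not tested. From 105 to 180 against 15 to 90 min, with every second time point, ZAP1 became -0.08, FET4 -0.25, DPP1 -0.05 and ZRT1 0.16. ZRT1 became 0.25 and 0.1 with missing values filled at 5 and 9 reads, and FET4 -0.03 at 9 reads. Without the libraries low in ADA2, ZPS1 became -0.04 and FET4 -0.06. Leave-one-out refits gave -0.04 to 0.32 for ZPS1, -0.06 to 0.28 for FET4, -0.01 to 0.26 for DPP1 and -0.18 to 0 for ZRT1, and for 15 to 90 min against 0 min -0.2 to 0.03 for ZPS1. From 285 to 360 against 195 to 270 min, ZRT3 became -0.05 after median centring, -0.01 with voom weights, -0.04 with every second time point and 0 to 0.15 in leave-one-out refits, and ZRT2 became 0 with every second time point. ZRT2 became -0.04 after median centring for late against early. Some calls were gained from 195 to 270 against 105 to 180 min: ZAP1 with every second time point (1.1) or without 180 min (1.05), and ZPS1 without the libraries low in ADA2 (1.08) or without 120 or 135 min (1.03). ZRT3 was called along the course with every second time point (1.05). Depth limits ZRT1, ZPS1, FET4 and ADH4, each under 10 reads in 3 to 6 libraries. No paired analysis was possible because the replicate numbers only follow the order of the samples in time.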
